A study of Mus musculus with 25 samples.

Results

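The genes described are 9 components and receptors of the complement system: the C1q chains C1qa, C1qb and C1qc, the components C4b, C3 and C6, properdin (Cfp), and the anaphylatoxin receptors C3ar1 and C5ar1. They are the rows of a table of 24537 gene models whose symbol is on this list. All 9 were found and all 9 entered the test. RNA was sequenced from sorted cells of C57BL6 mice, 200 cells to a library, in 25 libraries. The mice received a high fat diet (HFD, 45% of fat) or a control diet (CD, 10% of fat). From white adipose tissue 4 macrophage populations were sorted, with 2 HFD and 2 CD libraries each. Tim4+ cells were divided by their MHCII into pop1 (low) and pop2 (high). Among Tim4- cells, pop3 was CD11c- with high MHCII, while pop4 carried both CD11c and MHCII. Monocytes came from blood, gated by CD115 with Ly6C, with 3 HFD and 6 CD libraries. No genotype other than the strain was given for any group. In all 8 control libraries of adipose tissue the title reads CD-CD, whereas 3 monocyte controls are titled CD and 3 CD-CD, so diet and title series cannot be told apart in adipose tissue. Nothing in the labels says how many animals stand behind a library, so p-values measure the spread between libraries, which may be technical.

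Complement is a cascade of plasma proteins and cell surface receptors. C1q, built from chains A, B and C, binds immune complexes and dying cells, and starts the classical pathway, in which C4 and C2 form an enzyme that cleaves C3. Properdin stabilises the corresponding enzyme of the alternative pathway. C6 belongs to the membrane attack complex, and the cleavage fragments C3a and C5a act through C3ar1 and C5ar1 on myeloid cells. Tissue macrophages are a well known source of C1q, while most other plasma components are made chiefly by the liver.

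Libraries held 3.75 to 9.34 M counts. Levels are in CPM, counts per M counts of a library after scaling by its TMM factor, and 3 counts, called the floor, corresponded to 0.341 to 0.698 CPM. The labels were checked against marker genes. Mertk, a receptor of tissue macrophages, was at 60.3 ± 49.6 CPM in adipose libraries (SD, n = 16) and 0.289 ± 0.378 in monocytes (n = 9), and Ly6c2 at 3.04 ± 5.80 and 499 ± 74.3. None of 8 macrophage markers was at 0 in any adipose library, but their sum did not set the tissues apart (2969 to 5723 CPM in adipose libraries and 3839 to 4664 in monocytes), with Lyz2 at 1063 ± 283 and 2205 ± 109 CPM and Fcgr1 at 86.3 ± 51.3 and 260 ± 47.3. Timd4, which encodes Tim4, was at 263 to 624 CPM in pop1 and 88.6 to 562 in pop2, against 0.118 to 11.9 in pop3 and 0 to 10.6 in pop4. Markers of other cells differed in both directions. The 11 stromal markers summed to 136 to 1609 CPM in adipose libraries and 75.3 to 144 in monocytes, and 10 adipocyte markers to 234 to 813 and 12.3 to 60.3. Median sums in adipose libraries and monocytes were 19.1 and 1167 CPM for red cell markers, 8.33 and 57.4 for T cell markers and 20.3 and 79.4 for B cell markers. The 8 neutrophil markers summed to 5.94 to 27.2 CPM in adipose libraries and 529 to 1148 in monocytes, but Mmp8 alone accounted for 713 ± 139 there, with Ngp, Camp and Retnlg at 0.11, 0.028 and 0.102 CPM on average.

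The C1q genes lie side by side on the minus strand at chr4:136880145-136898844 of mm10, with 3624 bases between C1qb and C1qc, 3001 between C1qc and C1qa, and no other gene model in either gap. Promoters (250 bases before the start to 50 after it, RefSeq, GRCm38.p6) were found for 7 of the 9 genes, C1qa and C4b being the others. Those of C1qb and C1qc are shown because these neighbours had nearly the same profile in adipose tissue and parted in monocytes, and that of C3 because its profile ran the other way. They lie at chr4:136886151-136886450, chr4:136892865-136893164 and chr17:57228087-57228386, all on the minus strand. Capitals mark matches, on either strand, to cores of factors known in myeloid cells: GAGGAA (PU.1), TGCTGA (MAF), TTGCNNAA (C/EBP), GAAANNGAA (IRF) and TGANTCA (AP-1). No matches overlapped.
C1qb promoter: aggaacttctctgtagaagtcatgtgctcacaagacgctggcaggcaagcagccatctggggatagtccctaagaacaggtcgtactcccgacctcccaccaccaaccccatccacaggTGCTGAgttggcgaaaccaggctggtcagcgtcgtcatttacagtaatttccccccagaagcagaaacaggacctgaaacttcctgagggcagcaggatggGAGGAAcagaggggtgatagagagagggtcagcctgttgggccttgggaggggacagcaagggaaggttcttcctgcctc
C1qc promoter: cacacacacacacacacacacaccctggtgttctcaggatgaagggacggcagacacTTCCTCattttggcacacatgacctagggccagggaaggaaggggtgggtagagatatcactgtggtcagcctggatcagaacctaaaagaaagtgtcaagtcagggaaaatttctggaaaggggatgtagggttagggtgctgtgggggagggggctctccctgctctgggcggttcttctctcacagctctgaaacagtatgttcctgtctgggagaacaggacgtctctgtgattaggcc
C3 promoter: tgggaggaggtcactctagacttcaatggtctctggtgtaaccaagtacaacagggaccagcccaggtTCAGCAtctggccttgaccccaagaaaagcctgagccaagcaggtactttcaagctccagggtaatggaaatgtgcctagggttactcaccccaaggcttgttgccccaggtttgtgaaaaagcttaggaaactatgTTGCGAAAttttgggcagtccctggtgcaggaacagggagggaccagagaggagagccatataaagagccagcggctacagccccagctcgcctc
C1qb held a PU.1 core 30 bases before the start, on the gene's strand, and a MAF core 131 bases before it. For C1qb this is the start of the promoter entry, which lies upstream of the start of the counted gene model (chr4:136886177). C1qc held a PU.1 core on the opposite strand, 193 bases before the start. In the C3 promoter a C/EBP core stood 45 bases before the start and a MAF core, on the opposite strand, 182 bases before it. Of the promoters not shown, that of Cfp held 2 PU.1 cores, C3ar1 a MAF and an AP-1 core, C5ar1 a MAF and an IRF core, and C6 none of the 5. Over 32851 mouse promoters of the same length the PU.1 core was present in 28.3%, MAF in 19.5%, C/EBP in 10.8%, IRF in 8.56% and AP-1 in 7.81%, so these matches are a description of the letters.

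**Figure D1:**
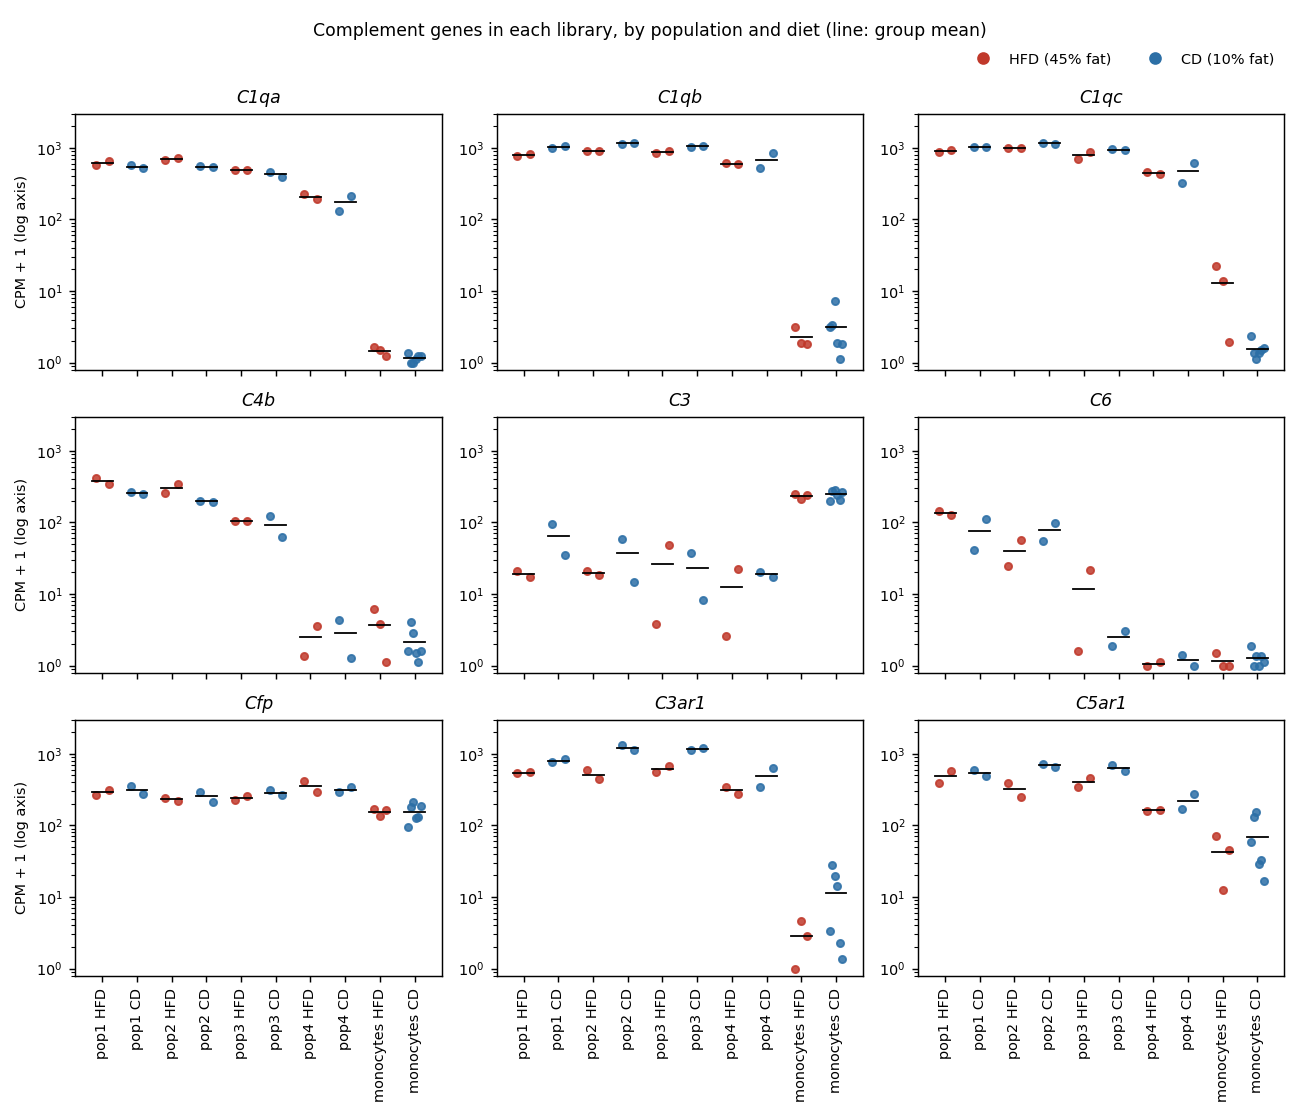
CPM + 1 (log axis) of the 9 complement genes in each library, by population and diet; points are libraries (2 per adipose group, 3 HFD and 6 CD monocyte libraries) and lines are group means. C1q chains and C3ar1 were high in every adipose library and low in monocytes, C3 was the reverse, and C4b and C6 were low in pop4 as well as in monocytes.

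Adipose macrophages differed from blood monocytes in all 9 genes. The C1q chains, C4b, C6, Cfp, C3ar1 and C5ar1 were higher in adipose tissue and C3 was lower (edgeR, adjusted p under 0.05 over 16961 genes). Of all genes tested, 18.5% were higher and 18.5% lower in this comparison, and the median log2 difference was 5.07 over the 9 genes and 0.19 over all genes. The lists of genes were chosen with earlier results in view, so these counts are descriptive. In pop4, the CD11c+ population, 6 of the 9 were higher than in monocytes (background 7.16%) and C3 was lower (background 5.3%), while C4b and C6 did not pass. Between Tim4+ and Tim4- populations, C1qa, C4b and C6 were higher in Tim4+ cells (background 7.26%), none was lower (background 7.79%) and 6 did not pass. Within the Tim4- cells the same 3 genes were higher in pop3 than in pop4 (background 4.25%) and none was lower (background 2.32%). Between pop1 and pop2 no member passed in edgeR (background 0.466%), none had an unadjusted p under 0.05 and DESeq2 called none. With size factors in place of TMM the share of called genes that were higher went to 59.6% in place of 50% for adipose tissue against monocytes, to 60.2% in place of 48.2% for Tim4+ against Tim4- and to 74.7% in place of 64.6% for pop3 against pop4. The all-gene median then shifted to 0.35 in place of 0.19, 0.26 in place of 0.14 and 0.30 in place of 0.17, and no call of a member changed direction.

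**Figure D2:**
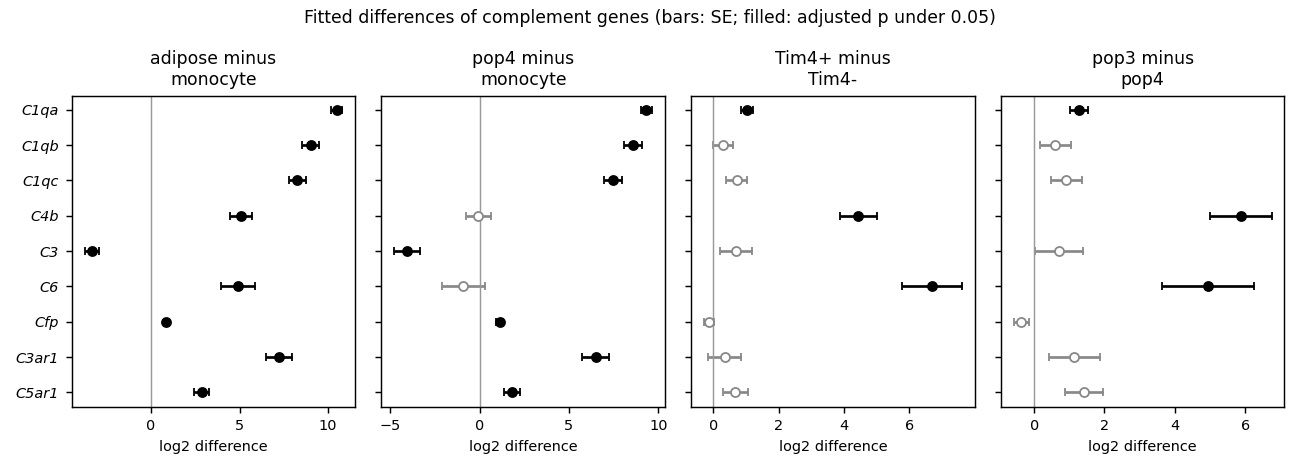
Fitted log2 differences of the 9 genes with their SE (bars) in 4 comparisons; filled points passed an adjusted p of 0.05 and open points did not. C4b and C6 stand to the right in Tim4+ minus Tim4- (4.43 and 6.68) and in pop3 minus pop4 (5.87 and 4.94), and near 0 in pop4 minus monocytes.

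The C1q chains were abundant in adipose macrophages and near the floor in most monocyte libraries. C1qa had a lowest, median and highest level of 131, 503 and 714 CPM in the 16 adipose libraries, against 0, 0.242 and 0.641 CPM in the 9 monocyte libraries. C1qb had 528, 906 and 1185 CPM in adipose libraries against 0.127, 0.877 and 6.29 CPM in monocytes. C1qc had 317, 939 and 1169 CPM in adipose libraries against 0.116, 0.587 and 21.5 CPM in monocytes. For each chain the lowest adipose library lay more than 10 times above the highest monocyte library. The fitted log2 differences were 10.48 (SE 0.32, edgeR adjusted p = 1.17e-15) for C1qa, 9.01 (SE 0.50, 1.25e-11) for C1qb and 8.27 (SE 0.49, 3.51e-11) for C1qc. Because C1qa had 0 to 5 counts in monocytes, the size of its fitted difference depends on the prior count. Together the chains took 0.106% to 0.301% of all counts in adipose libraries. In these sorted pools fewer cells of a type and less RNA per cell cannot be told apart, and tissue, gate and digestion cannot be told apart from the cell type either, since adipose tissue was digested with collagenase in flavopiridol and blood was lysed.

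Within adipose tissue the C1q chains were lowest in pop4. Summed over the chains, pop2 averaged 2732 ± 144 CPM, pop1 2460 ± 177, pop3 2292 ± 183 and pop4 1284 ± 285 (SD, n = 4 each). The ranges of pop1 (2233 to 2603 CPM), pop2 (2588 to 2864) and pop3 (2046 to 2450) met or overlapped their neighbours, whereas pop4 (976 to 1661) lay below all of them. Each chain averaged least in pop4. C1qa had 580 and 661 CPM in pop1 HFD and 571 and 517 in pop1 CD, and 681 and 714 in pop2 HFD and 560 and 535 in pop2 CD. It had 489 and 488 CPM in pop3 HFD and 455 and 396 in pop3 CD, and 222 and 192 in pop4 HFD and 131 and 212 in pop4 CD. The 4 populations separate into pop1 and pop2 on top, pop3 next and pop4 at the bottom, with no overlap between these 3 levels. C1qa was higher in Tim4+ than in Tim4- cells by 1.03 on the log2 scale (SE 0.18, edgeR adjusted p = 6.24e-04) and higher in pop3 than in pop4 by 1.28 (SE 0.26, 0.00554). C1qb differed by 0.29 (SE 0.31, 0.544) and 0.60 (SE 0.44, 0.41), and C1qc by 0.71 (SE 0.32, 0.134) and 0.92 (SE 0.45, 0.201), which did not pass. Both C1qa calls were lost when a receptor background entered the fit (0.78, adjusted p = 0.478, and 0.90, 0.781). It is the summed counts of 1463 olfactory and vomeronasal receptor genes, which these cells should not express. This background was 244 to 683 CPM in Tim4+ libraries, 194 to 657 in pop3, 79.5 to 190 in pop4 and 93 to 255 in monocytes. Pop3 and pop4 did not overlap in it, so a fit with it cannot tell background from population there. In the other comparisons, also those below, it differed between populations in part. With the CD groups alone adjusted p was 0.0864 and 0.124, and with the HFD groups alone the difference of pop3 and pop4 had 0.0634. Without HFD monocyte library 3, which has no part in the contrast but enters the shared estimate of spread, C1qc passed in both comparisons (0.017 and 0.0467).

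The shares of the chains were compared on counts per length (CPM per kb). In adipose libraries C1qa made up 12.5% to 27.0%, C1qb 33.6% to 54.1% and C1qc 32.7% to 41.4% of the total. C1qc had the narrowest spread, 38.3% ± 2.34 over 16 libraries. The C1qa share averaged 23.4% ± 3.48 in pop1, 22.5% ± 4.36 in pop2, 19.8% ± 3.24 in pop3 and 14.5% ± 2.02 in pop4 (SD, n = 4 each), and C1qb took 36.8%, 37.6%, 42.2% and 50% in the same order. Within each adipose population the C1qa share was higher in both HFD libraries than in both CD libraries: 25.6% and 27.0% against 21.6% and 19.5% in pop1, and 25.9% and 26.7% against 19.3% and 18.3% in pop2. In pop3 it was 23.5% and 21.2% on HFD against 18.3% and 16.1% on CD, and in pop4 16.8% and 15.6% on HFD against 13.2% and 12.5% on CD. This pattern was singled out after its values were seen and was not tested.

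**Figure D3:**
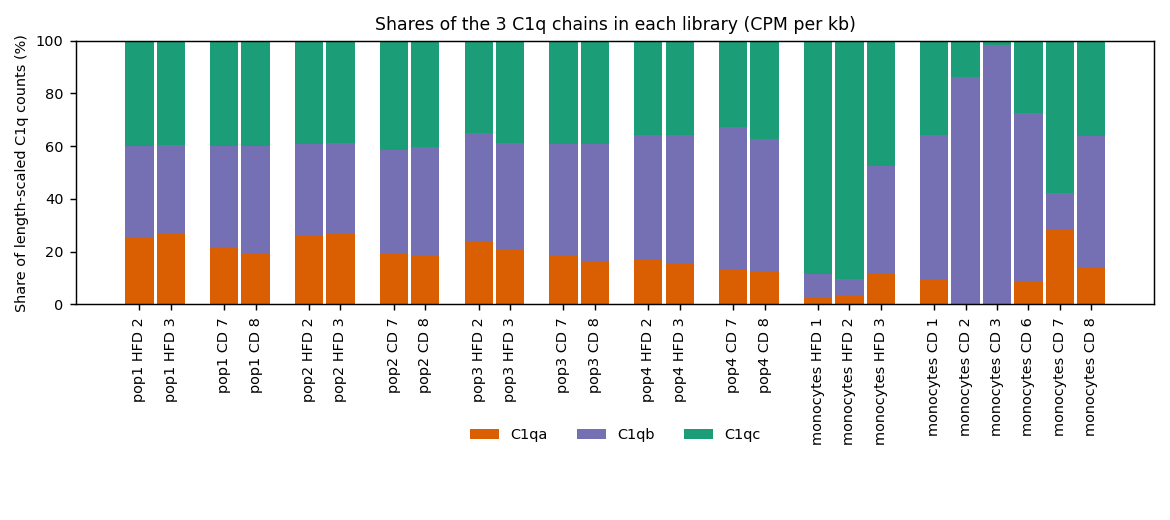
Share of each C1q chain (%) in the length-scaled counts of the 3 chains, per library; HFD libraries stand left of CD libraries of the same population. Adipose libraries have similar proportions, with C1qa at 12.5% to 27.0%, whereas C1qc takes 88.5% and 90.5% in HFD monocyte libraries 1 and 2 and C1qb 98.2% in CD monocyte library 3.

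In blood monocytes C1qc was higher on HFD, and it was the only gene of the 16961 that passed in this diet comparison (background 0.0059%). C1qc had 21.5, 12.9 and 0.967 CPM in HFD monocytes (168, 75 and 8 counts), against 1.37, 0.378, 0.116, 0.376, 0.507 and 0.587 CPM in CD monocytes (11, 3, 1, 3, 4 and 5 counts). HFD libraries 1 and 2 were above every CD library and HFD library 3 was below the highest of them, so the groups overlap. The 95% Poisson limits, which hold for counting error alone because molecules were not tagged, were 18.4 to 25.1 and 10.2 to 16.2 CPM for HFD libraries 1 and 2, 0.417 to 1.90 for HFD library 3 and 0.684 to 2.45 for the highest CD library. The fitted log2 difference was 4.37 (SE 0.55, edgeR adjusted p = 0.00156). This SE rests on a spread estimated jointly over all 10 groups, adipose populations included, and does not measure the spread of monocytes alone. The call stayed with each of the 25 libraries left out in turn, with the highest adjusted p, 0.0461, without HFD library 1 (3.57). It was lost with CD-titled controls only (4.24, adjusted p = 0.313) and with CD-CD-titled controls only (4.48, 0.0538). A fit to monocytes with title numbers 1 to 3 alone, blocked on the number, did not call C1qc (4.04, edgeR adjusted p = 0.999).

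In HFD monocytes C1qa and C1qb had fewer counts than C1qc in each library. C1qa had 0.641, 0.517 and 0.242 CPM in HFD monocytes (5, 3 and 2 counts), against 0.374, 0, 0, 0.125, 0.253 and 0.235 CPM in CD monocytes. C1qb had 2.18, 0.861 and 0.846 CPM in HFD monocytes, against 2.12, 2.39, 6.29, 0.877, 0.127 and 0.822 CPM in CD monocytes. For C1qa, HFD libraries 1 and 2 were above every CD library and HFD library 3 was not; for C1qb the groups overlap. The log2 differences of 1.40 (SE 0.53, unadjusted p = 0.0307, adjusted p = 0.646) for C1qa and -0.68 (SE 0.60, 1.0) for C1qb did not pass. A C1qc share of 88.5% and 90.5% in HFD libraries 1 and 2 lay outside the adipose range of 32.7% to 41.4%, and HFD library 3 had 47.4%. In CD library 3, which held the highest C1qb value, C1qb took 98.2% with 54 counts of C1qb and 1 of C1qc. The 8 macrophage markers summed to 4204, 4664 and 4067 CPM in HFD monocytes and 3839 to 4300 in CD monocytes, and the 11 stromal markers to 106, 144 and 95.2 against 75.3 to 138 CPM; their part in the C1qc difference was not tested.

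**Figure D4:**
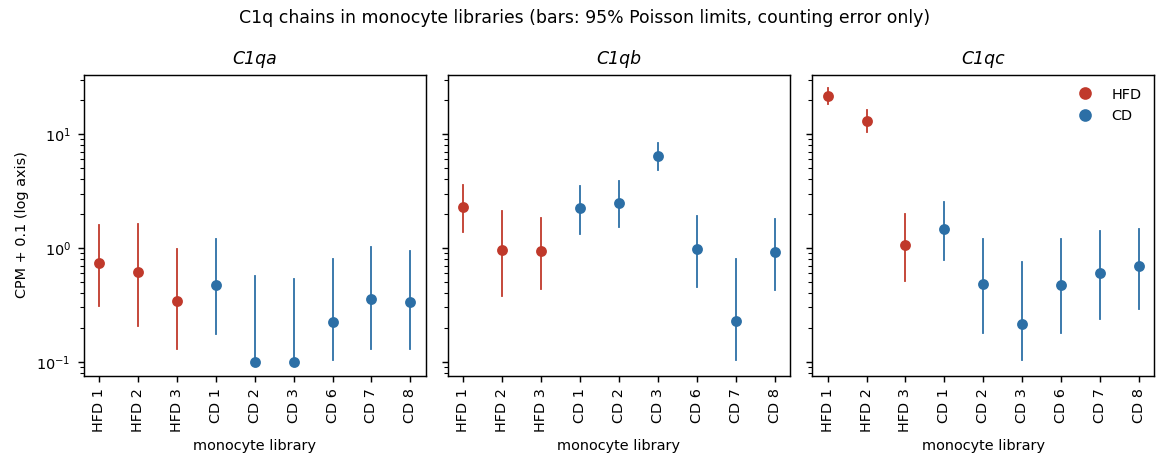
CPM + 0.1 (log axis) of C1qa, C1qb and C1qc in the 9 monocyte libraries, with 95% Poisson limits for counting error. C1qc in HFD libraries 1 and 2 (21.5 and 12.9 CPM) stands above all CD libraries, with limits that do not overlap theirs. C1qa in these libraries (0.641 and 0.517 CPM) is also above them, but its limits overlap those of CD library 1 (0.374 CPM). HFD library 3 does not stand above all CD libraries for either chain, and C1qb is highest in CD library 3 (6.29 CPM).

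C4b (chr17:34728381-34743897, minus strand), whose product is the next component of the classical pathway after C1, followed a steep order through the adipose populations. C4b had 411 and 338 CPM in pop1 HFD and 267 and 245 in pop1 CD, and 256 and 345 in pop2 HFD and 201 and 189 in pop2 CD. It had 103 and 102 CPM in pop3 HFD and 123 and 61.4 in pop3 CD, and 0.369 and 2.59 in pop4 HFD and 3.39 and 0.269 in pop4 CD. Monocytes had 5.26, 2.76 and 0.121 CPM on HFD and 0.127 to 3.02 on CD. Pop1 and pop2 overlapped, pop3 lay below them, and pop4 was within the range of monocytes. C4b was higher in adipose tissue than in monocytes by 5.07 on the log2 scale (SE 0.62, edgeR adjusted p = 1.85e-06), in Tim4+ than in Tim4- cells by 4.43 (SE 0.57, 2.01e-05) and in pop3 than in pop4 by 5.87 (SE 0.88, 3.07e-04). Pop4 against monocytes gave -0.08 (SE 0.70, 0.977). The summed stromal markers were 136 to 831 CPM in pop1, 288 to 499 in pop2, 219 to 1609 in pop3 and 198 to 411 in pop4. In monocytes they were 75.3 to 144 CPM, and their part in the level of C4b was not tested. C4b has a near-identical copy, C4a, and the way reads shared by both were counted is not given in the sources used here, so its level is uncertain to that extent; C4a itself was at 2.09 ± 2.28 CPM in adipose libraries and 0.348 ± 0.243 in monocytes.

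C3 (chr17:57203967-57228136, minus strand), the component on which all pathways converge, was the only member lower in adipose macrophages. The adipose libraries had a lowest, median and highest C3 level of 1.60, 19.6 and 92.6 CPM. C3 had 250, 212 and 240 CPM in HFD monocytes and 200 to 284 CPM in CD monocytes, so every adipose library was below the lowest monocyte library. The log2 difference was -3.36 for adipose tissue minus monocytes (SE 0.40, edgeR adjusted p = 1.19e-06) and -4.05 for pop4 minus monocytes (SE 0.72, 4.90e-04). The call for pop4 was lost with the HFD groups alone (-4.31, adjusted p = 0.0874). Among adipose libraries C3 varied widely within groups. C3 had 19.9 and 16.2 CPM in pop1 HFD against 92.6 and 33.7 in pop1 CD, and 19.8 and 17.4 in pop2 HFD against 58.4 and 13.6 in pop2 CD. It had 2.84 and 47.2 CPM in pop3 HFD against 36.2 and 7.35 in pop3 CD, and 1.60 and 21.7 in pop4 HFD against 19.4 and 16.1 in pop4 CD. In each population CD library 7 was above CD library 8. Tim4+ against Tim4- cells gave 0.69 (SE 0.48, adjusted p = 0.327), which passed only without HFD library 3 of pop3 (1.46, 0.0404), the library with 47.2 CPM.

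Cfp (chrX:20925454-20931555, minus strand), the properdin gene, varied least. It was at 285 ± 53.9 CPM in adipose libraries (SD, n = 16) and 154 ± 36.8 in monocytes (n = 9). The lowest adipose library had 213 CPM and the highest monocyte library 212, so the groups touched without overlapping. The log2 difference was 0.87 (SE 0.14, edgeR adjusted p = 6.56e-05). Pop4 was at 336 ± 59.8 CPM, pop1 at 301 ± 39.4, pop3 at 262 ± 34.3 and pop2 at 243 ± 37.1 (SD, n = 4 each), and neighbours in this order overlapped. Cfp thus differed from C4b and C6 in being as high in pop4 as elsewhere in adipose tissue, with 1.12 for pop4 minus monocytes (SE 0.19, 2.56e-04) and -0.36 for pop3 minus pop4 (SE 0.22, 0.318).

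C6 (chr15:4727210-4804045, plus strand) was concentrated in Tim4+ cells. C6 had 144 and 127 CPM in pop1 HFD and 39.7 and 109 in pop1 CD, and 23.9 and 54.9 in pop2 HFD and 54.2 and 98.5 in pop2 CD. It had 0.591 and 20.8 CPM in pop3 HFD and 0.888 and 2.07 in pop3 CD, and 0 and 0.123 in pop4 HFD and 0.391 and 0 in pop4 CD. Monocytes had 0.513, 0 and 0 CPM on HFD and 0 to 0.872 on CD. Every Tim4+ library was above every Tim4- library, and HFD library 3 of pop3 was the highest of the Tim4- libraries. C6 was higher in Tim4+ than in Tim4- cells by 6.68 on the log2 scale (SE 0.92, edgeR adjusted p = 4.16e-05) and in adipose tissue than in monocytes by 4.91 (SE 0.96, 4.68e-04). With the receptor background in the fit the adjusted p was 0.113 for Tim4+ against Tim4- cells and 0.0657 for adipose tissue against monocytes, and that of the tissue difference was 1.0 without CD library 7 or HFD library 3 of pop4. The difference of pop3 and pop4, 4.94 (SE 1.30, 0.0272), was lost when any pop4 library, CD library 8 of pop3 or HFD library 3 of pop3 was left out (adjusted p 0.0508 to 0.161), with the receptor background (0.774) and with either diet alone (0.223 for HFD and 0.376 for CD). The 9 markers of peritoneal macrophages, which also carry Tim4, summed to 498 and 264 CPM in pop1 HFD and 2575 and 2353 in pop1 CD, and to 111 and 108 in pop2 HFD and 881 and 449 in pop2 CD. The same markers summed to 68.2 to 363 CPM in pop3, 60.3 to 102 in pop4 and 192 to 284 in monocytes, the last above pop2 HFD. Their part in the level of C6 was not tested.

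The anaphylatoxin receptors were high in all adipose populations. C3ar1 (chr6:122847140-122856157, minus strand), the receptor of C3a, had a lowest, median and highest level of 273, 604 and 1315 CPM in adipose libraries against 0, 2.37 and 26.9 CPM in monocytes. C5ar1 (chr7:16246745-16259338, minus strand), the receptor of C5a, had 159, 425 and 726 CPM in adipose libraries against 11.7, 44.3 and 153 CPM in monocytes. Neither overlapped between tissues. The log2 differences were 7.23 (SE 0.74, edgeR adjusted p = 1.59e-07) for C3ar1 and 2.85 (SE 0.40, 9.66e-06) for C5ar1. Against monocytes, pop4 was higher by 6.49 (SE 0.75, 3.12e-06) for C3ar1 and by 1.80 (SE 0.45, 0.00913) for C5ar1, whose call was lost with CD groups alone (adjusted p = 0.14) and HFD groups alone (0.0742). C3ar1 averaged 893 ± 329 CPM in pop3, 865 ± 420 in pop2, 672 ± 152 in pop1 and 396 ± 155 in pop4 (SD, n = 4 each), with all neighbours overlapping. C5ar1 averaged 519 ± 153 CPM in pop3, 509 ± 89.6 in pop1 and 504 ± 222 in pop2, which were not told apart by their spread, and 190 ± 54.1 in pop4, whose highest library (271 CPM) was above the lowest of pop2 (251). For pop3 minus pop4, C5ar1 gave 1.43 (SE 0.54, adjusted p = 0.107), which passed with DESeq2 (1.56, 0.0488), and C3ar1 gave 1.14 (SE 0.73, 0.334).

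Monocyte levels of the receptors varied widely within the control group. C3ar1 had 0, 3.62 and 1.81 CPM in HFD monocytes, against 2.37, 26.9, 18.6, 13.3, 1.27 and 0.352 CPM in CD monocytes. C5ar1 had 70.0, 11.7 and 44.3 CPM in HFD monocytes, against 57.2, 128 and 153 CPM in CD-titled and 28.2, 31.5 and 15.6 CPM in CD-CD-titled controls. The title series of the controls did not overlap for C5ar1, nor for C1qb (2.12 to 6.29 against 0.127 to 0.877 CPM). C4b did not overlap either (0.623 to 3.02 against 0.127 to 0.587 CPM). The libraries at 0.623 and 0.587 CPM both held 5 counts of C4b, so that gap rests on library size alone. These patterns are a description of 3 libraries each with no test, and the share of all genes without overlap was not counted. Diet differences of -2.58 (SE 0.94, adjusted p = 0.551) for C3ar1 and -0.71 (SE 0.55, 0.978) for C5ar1 did not pass. The summed neutrophil markers were 973 and 1148 CPM in CD libraries 2 and 3, where C5ar1 was highest. In the other CD monocytes they were 575 to 730 CPM. The HFD monocytes had 792, 796 and 529 CPM of these markers, with C5ar1 at 70.0, 11.7 and 44.3 CPM in the same order. This sum was mostly Mmp8 in monocytes, as given above, and its part was not tested.

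Set beside each other per length, the genes fell into levels that differed between tissues. In adipose libraries C1qb averaged 838 ± 184 CPM per kb and C1qc 804 ± 248, which overlapped, then C1qa 430 ± 170. Cfp (176 ± 33.1), C5ar1 (170 ± 76.1) and C3ar1 (164 ± 76.7) followed without being told apart by their spread, and C4b (30.9 ± 25.4), C6 (15.0 ± 17.9) and C3 (5.20 ± 4.57) came last (SD, n = 16). The populations did not all keep this order: in pop4 C3 averaged 2.89 CPM per kb, above C4b (0.309) and C6 (0.0456), and C1qa (175) was below Cfp (206), and in pop3 C3 (4.59) was above C6 (2.16). In monocytes Cfp led with 95.1 ± 22.7 CPM per kb, followed by C3 (47.4 ± 6.15) and C5ar1 (23.6 ± 19.6), and each of the others averaged at most 4.11 CPM per kb (n = 9).

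High fat diet moved no member past the threshold in the adipose populations. The background of called genes was 0.436% in pop1, 4.19% in pop2, 0.0943% in pop3 and 0.0354% in pop4, and 0.637% for the difference between the diet effects of Tim4+ and Tim4- cells. In each of these 5 comparisons edgeR and DESeq2 called 0 of 9 members and 0 of 9 had an unadjusted p under 0.05. C3ar1 came nearest to a shared direction. C3ar1 had 536 and 552 CPM in pop1 HFD against 756 and 844 in pop1 CD, and 585 and 438 in pop2 HFD against 1315 and 1124 in pop2 CD. It had 549 and 676 CPM in pop3 HFD against 1140 and 1208 in pop3 CD, and 339 and 273 in pop4 HFD against 347 and 623 in pop4 CD. Both HFD libraries lay below both CD libraries in each population, as in 163 of the 16961 genes (0.961%); no other member did so. Whether libraries with the same title number share animals is not given, so counts were also summed over populations per title number, giving 2 HFD and 2 CD sums.

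In the sums C3ar1 gave -0.79 (SE 0.10, unadjusted p = 2.92e-04, edgeR adjusted p = 0.296), which DESeq2 called (-0.77, adjusted p = 0.00141). C5ar1 gave -0.50 (SE 0.12, adjusted p = 0.30), C4b 0.46 (SE 0.16, 0.369), C1qa 0.27 (SE 0.10, 0.38), C1qb -0.25 (SE 0.11, 0.421) and C1qc -0.15 (SE 0.10, 0.574). edgeR called none of 17806 genes in the sums (background 0%), with 2159 at an unadjusted p under 0.05, 4 members among them, and DESeq2 called 844. C1qb had 766 and 806 CPM in pop1 HFD against 1000 and 1059 in pop1 CD, 905 and 908 in pop2 HFD against 1118 and 1185 in pop2 CD, and 849 and 909 in pop3 HFD against 1040 and 1075 in pop3 CD. In pop4, C1qb had 610 and 588 CPM on HFD against 528 and 833 on CD, which overlap. The HFD libraries were thus below the CD libraries for C1qb in pop1 to pop3, and above them for C1qa in the same 3 populations, at the values given above. C1qc was below in pop1 to pop3 as well, and C4b was above in pop1 and pop2. C5ar1 had 390 and 251 CPM in pop2 HFD against 726 and 649 in pop2 CD, 345 and 459 in pop3 HFD against 703 and 569 in pop3 CD, and 159 and 163 in pop4 HFD against 168 and 271 in pop4 CD. It overlapped in pop1 (390 and 573 on HFD against 583 and 490 on CD). The share of all genes without overlap in only some of the populations was not counted, so these patterns are a description. The sums of the macrophage markers were also lower in both HFD libraries in pop1 to pop3, at 3838 and 3836 CPM in pop1 HFD against 4464 and 4767 in pop1 CD, 3660 and 3437 in pop2 HFD against 5723 and 5165 in pop2 CD, and 3314 and 3998 in pop3 HFD against 4877 and 4738 in pop3 CD. In pop4 they overlapped, at 3459 and 3198 CPM on HFD against 2969 and 4078 on CD, and their part in these differences was not tested.

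Beyond the 9 genes, 43 further complement genes were listed by role, and 36 of them were tested. In adipose tissue against monocytes 13 of 36 were higher and 8 lower (18.5% of all genes each way), and their median log2 difference was 0.58. By role, 4 of 4 tested classical genes and 3 of 6 terminal genes were higher, 3 of 5 membrane regulators were lower, and 2 of 10 receptors were higher and 3 lower. Of these calls, C8a was lost in 23 and Cd59b in 15 of 25 leave-one-out fits, C1ra and C4a with the receptor background and with either diet alone, and Cr1l and Cd59b with size factors and DESeq2. All 3 terminal calls (Hc, C8a and C9, averaging 1.23, 1.18 and 1.44 CPM in adipose libraries) were lost with the receptor background. So were those of Masp1, Cfi, Clu, Cd46, Cr1l, Cd59b, C5ar2, Cd93 and Lrp1, and C2 was lost with the HFD groups alone. Cfd, the adipocyte protease factor D, was higher by 6.98 (SE 1.25, edgeR adjusted p = 1.86e-04), at 0.275 to 57.8 CPM in adipose libraries against 0 to 0.233 in monocytes. Adipoq, an adipocyte gene, was at 47.4 ± 48.5 and 0.0818 ± 0.14 CPM there. Fcna, a lectin of the ficolin family, was higher by 6.40 (SE 0.95, 2.24e-05), and its relative Fcnb lower, at -6.52 (SE 0.59, 4.39e-08). The C1s protease gene C1s1 was higher by 4.78 (SE 1.09, 0.00195). Cfd was no longer called with the receptor background, C1s1 with the HFD groups alone, and Fcna without HFD library 2 of pop4.

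The Tim4+ cells were also higher in several of these genes. Of the 36, 6 were higher (7.26% of all genes) and 2 lower (7.79%) than in Tim4- cells, including C5ar2 at an adjusted p of 0.05, which was lost in 22 of 25 leave-one-out fits. Vsig4, a macrophage receptor of C3 fragments, was at 165 ± 148 CPM in Tim4+ and 11.3 ± 30.4 in Tim4- cells (SD, n = 8 each; 7.41, SE 0.83, adjusted p = 4.21e-06). C2, the partner of C4 in the classical pathway, was at 33.9 ± 39.6 and 3.84 ± 8.20 CPM (4.54, SE 0.98, 0.00326), and Fcna at 463 ± 94.6 and 114 ± 128 (3.36, SE 0.75, 0.00424). Itgax, at -5.49 (SE 0.76, 4.32e-05), encodes CD11c and was part of the gate. The C2 call was lost with the receptor background and with the HFD groups alone, and that of Fcna with the CD groups alone.

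In pop3 against pop4, 7 of 36 were higher (4.25% of all genes) and 2 lower (2.32%). Vsig4 gave 7.73 (SE 1.33, adjusted p = 0.00141), at 0.709 to 86.7 CPM in pop3 and 0 to 0.123 in pop4, C2 5.09 (SE 1.45, 0.0403) and Fcna 4.53 (SE 1.12, 0.0189). The C2 call was lost in 8 and that of Fcna in 5 of the leave-one-out fits, and Vsig4 with the HFD groups alone. Both C2 and Fcna were also lost with the receptor background and with either diet alone. Of the other calls, C8b was lost in 22, C5ar2 in 8 and Itgax in 7 of the leave-one-out fits. Itgb2 and Cd93 were lost with either diet alone. In pop4 against monocytes 5 were higher (7.16% of all genes) and 4 lower (5.3%), among them Cfd (7.09, SE 1.32, 7.47e-04), Fcnb (-6.56, SE 1.08, 2.58e-04) and the gate gene Itgax (4.37, SE 0.79, 5.29e-04). With the HFD groups alone the calls of Cfd, Fcnb and Itgax were lost. Between pop1 and pop2 edgeR called 0 of 36, with 4 at an unadjusted p under 0.05 and 0 by DESeq2.

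On HFD, Cr1l, the mouse membrane regulator Crry, was lower in pop2. It was at 26.7 ± 7.28 CPM in pop2 HFD and 144 ± 15.5 in pop2 CD (SD, n = 2 each), a log2 difference of -2.43 (SE 0.46, edgeR adjusted p = 0.00351). It was the only listed gene that edgeR called in any of the diet comparisons, and 4.19% of all genes were called in pop2. Of the 36, 5 had an unadjusted p under 0.05 in pop1 (1 called by DESeq2), 4 in pop2 (2), 6 in pop3 (1), 6 in pop4 (0), 4 in monocytes (0) and 2 for the difference of diet effects (0). Of all 16961 genes, 1887, 2878, 1873, 1186, 1169 and 2155 had such a p in these comparisons in the same order. DESeq2 called 736, 1915, 717, 130, 140 and 540 of all genes in that order. In the sums 10 of the 38 listed genes tested there had such a p (4 called by DESeq2), as had 2159 of all 17806 genes (844 called by DESeq2).

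**Figure D5:**
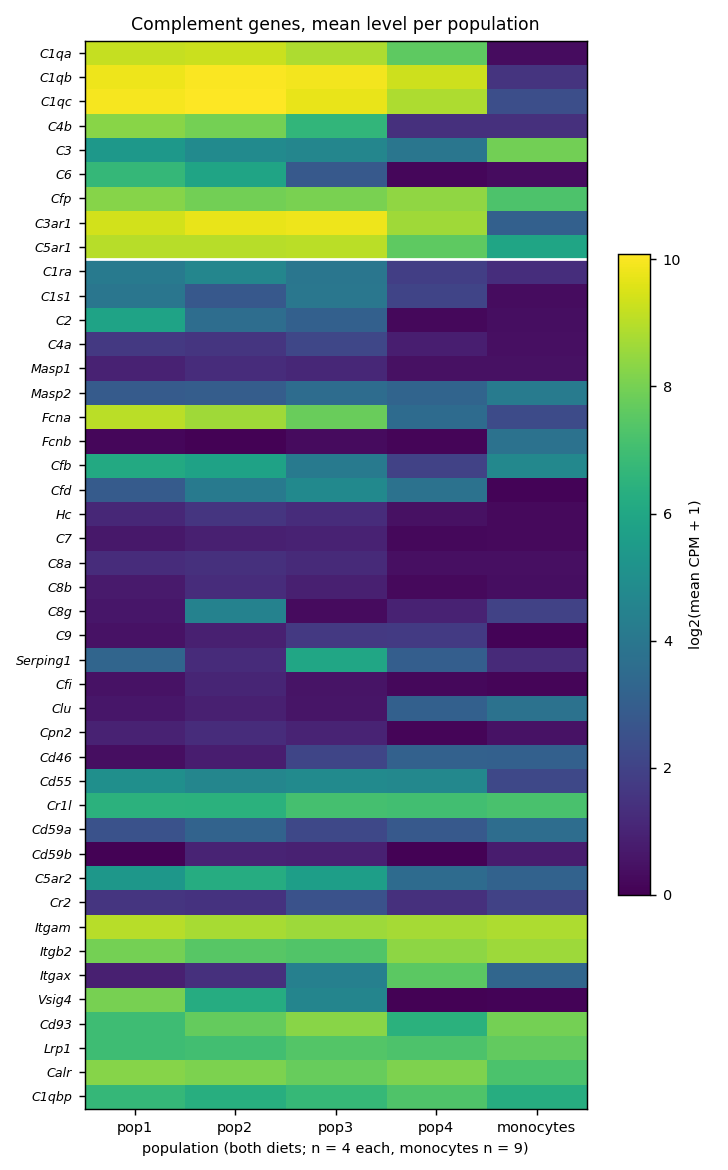
Mean level, as log2(mean CPM + 1), of the 9 members (above the white line) and of the other complement genes tested and reported, by population over both diets (4 libraries each, 9 for monocytes). The column of pop4 is dark for C4b, C6, C2, Vsig4 and Fcna, which are brighter in pop1 to pop3, and C3 and Fcnb are brightest in monocytes.

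Among 16952 genes outside the list, those most like each member were taken by Pearson correlation of log2(CPM + 1) over the 25 libraries, which share depth and background and fall into tissue groups, so that r is a description. Nearest to the summed C1q chains were Ccl24 (0.991), Pmp22 (0.986) and Dab2 (0.984), at 465, 386 and 1110 CPM in adipose libraries and 2.69, 0.491 and 0.765 in monocytes. Dab2 (0.96) and Pmp22 (0.957) also followed C3ar1 after Mt1 (0.962), and Mt1 (0.943), Eps8 (0.929) and B4galt6 (0.92) followed C5ar1. Nearest to C4b were Cd209g (0.979), Dnm1 (0.971) and Fkbp9 (0.965), each at least as high in Tim4+ as in Tim4- cells on average, as with Cd209g at 403 and 106 CPM. Cd209g has near-identical relatives and is uncertain for that reason. C6 was nearest to Klhl13 (0.925) and to Pcdha12 and Pcdha6 (0.924 each), models of the protocadherin alpha cluster that share exons. C3 was nearest to Tnfrsf1b (0.909), Vcan (0.898) and Ogfrl1 (0.889), at 255, 6.37 and 125 CPM in adipose libraries and 563, 478 and 441 in monocytes, and Cfp to Slc41a2 (0.87), Cd81 (0.869) and Ecm1 (0.867).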

How the data were processed

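RNA of 25 libraries was analysed from 1 table of read counts that the authors deposited. Reads were aligned with STAR 2.5.3a and handled with HOMER on mm10, per the submitters' processing notes, and how strand and multiply mapped reads were counted is not given in the sources used here. The table held 24537 gene rows and every column belonged to 1 library. Library totals were 3.75 to 9.34 M counts, and intervals and floors cover counting error only. Genes passing edgeR's expression filter by group (16961) were tested with edgeR 4.0.16 (R 4.3.3; limma 3.58.1), using TMM factors, the robust quasi-likelihood F test over 10 groups with shared dispersion, and Benjamini-Hochberg adjustment over all genes tested at a threshold of 0.05. CPM used the TMM-scaled library sizes, and CPM per kb divided it by the annotated length. Adipose counts were also summed by title number. The script was tested on simulated data. Alternatives were size factors (RLE), no filter, DESeq2 1.42.0, each library left out, a block on the title number, the monocyte controls by title, the receptor background as a covariate, and each diet alone.

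The members and the gene lists were chosen with earlier results of these data known. All 9 members were named in each comparison, with up to 4 other complement genes of largest absolute difference among those that passed, and the 3 genes nearest to each profile. Further genes named, such as C5ar2, C4a, C8a and Cd59b, were chosen after their values were seen. A listed complement gene is included in the counts and not reported by name here.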

Additional observations from a re-analysis of the deposited data

Results flagged for a closer look

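C1qb in CD monocyte library 3 stood apart from the other 5 libraries of its group, at 6.29 CPM against 0.127 to 2.39 CPM, with a gap of 0.632 of the group's range. Chance flags about 1 in 20 groups in this way.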

How the results depend on the processing

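No called difference of a member changed sign under any alternative run; 70 of 2511 leave-one-out values and 35 of 538 other values of members changed sign, all uncalled. Numbers of genes called moved more; the cause was not tested. With size factors the difference of diet effects gave 58 genes in place of 108, and without the filter pop1 gave 36 for diet in place of 74. DESeq2 called 4092 genes for Tim4+ against Tim4- (2554 with edgeR), 567 for pop1 against pop2 (79) and 2524 for pop3 against pop4 (1114). For diet it called 736 in pop1, 1915 in pop2 (711), 717 in pop3 (16), 130 in pop4 (6), 140 in monocytes (1), 540 for the difference of diet effects and 844 in the sums (0). With the receptor background as covariate 1813 genes were called for adipose tissue against monocytes (6278), 405 for Tim4+ against Tim4- and 138 for pop3 against pop4. That background itself differed between populations, as given above. CD groups alone gave 4003, 1091 for pop4 against monocytes (2113), 397 and 294, and HFD groups alone 2235, 550, 1220 and 81, with 14 for pop1 against pop2. With CD-titled controls only, 0 genes were called in monocytes.

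Pairing by title number was not seen: r between same-numbered libraries was -0.0393 to 0.0734, and -0.0347 to 0.0229 for the 3 monocyte pairs. The values of a pair of 2-library groups mirror each other and are not separate. A low r over all genes cannot tell unpaired libraries from shared animals hidden by noise. The replicate block gave 3297 genes for adipose tissue against monocytes, 1227 for pop4 against monocytes, 26 for pop1 against pop2, 554 for pop3 against pop4 and 0 for the difference of diet effects. In monocytes with numbers 1 to 3 it gave 0 genes, C1qc having 4.04 (adjusted p = 0.999). For pop3 minus pop4 the block gave C6 4.65 (0.0566), C3ar1 1.15 (0.0362) and C5ar1 1.40 (0.0417).

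Leaving out each library gave 1399 to 2193 genes for pop4 against monocytes (lowest without CD library 7 of pop4), 55 to 215 for pop1 against pop2 (highest without HFD library 2 of pop2) and 379 to 1174 for pop3 against pop4 (lowest without HFD library 2 of pop4). For diet it gave 25 to 130 in pop1, 428 to 919 in pop2, 5 to 87 in pop3, 2 to 16 in pop4, 1 to 6 in monocytes and 20 to 321 for the difference of diet effects. Where an adipose group was left with 1 library, that library was assumed to vary like the others. Groups of 2 libraries and levels under the floor, as for C6 in pop4 and C1qa in monocytes, limit what these counts can show.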
